A study of Homo sapiens and Mus musculus with 20 samples.

Results

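Camptothecin-only Satb1 sites are the peaks of full-length Satb1 that were called in camptothecin-treated MCF10A cells and overlapped, by 1 bp or more, neither a peak of untreated cells nor a peak of ICRF-193-treated cells. They were chosen by this overlap alone, and there were 1198 of them among 24475 camptothecin peaks and among 84702 peaks of the 3 lists together. MCF10A is an established, non-tumorigenic line of human mammary gland epithelium. All cells used for ChIP-seq expressed a Satb1 fusion that was precipitated with an antibody to GFP: the full-length protein without drug, the full-length protein after camptothecin or after ICRF-193, both for 2 h, a protein without the homeodomain (dHD), or the N-terminal domain with the CUT1 domain alone (N-C1). The labels name no drug for dHD and N-C1. Chromatin accessibility was measured by ATAC-seq in native MCF10A cells and in MCF10A cells expressing Satb1, also without a named drug. Each condition had 1 peak list, so no comparison here has a replicate check, and the 95% intervals below cover counting error across peaks only.

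Satb1 is an architectural chromatin protein, best known from thymocytes, where it organises loops at genes of T cell development. It binds A/T-rich DNA through its CUT domains and homeodomain, and its N-terminal domain lets it form multimers. Camptothecin traps topoisomerase I on nicked DNA, and ICRF-193 closes topoisomerase II into a clamp that no longer passes strands. Both enzymes relieve the supercoiling that polymerases and remodelling leave behind, and the study applied the drugs to ask how torsion bears on where Satb1 binds. Topoisomerase I acts during transcription, and long genes are known to depend on it most.

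The sites were A/T-rich stretches, mostly outside protein-coding genes, that held the Satb1 consensus. Most were also peaks of a truncated Satb1 from cells with no named drug. The consensus was taken as any of the 8 forms of 7 bases that read C or T, then TA, then A or T, then TA, then A or G. This set is its own reverse complement, so a search of 1 strand covers both, and overlapping matches were each counted. The 200 bp at the midpoint of 8 sites follow, in GRCh37 (hg19), with every match in capitals. The sites near ZWINT, PLA2G4A and SFR1 and in LRBA had the largest fold enrichment, the sites in CD200R1 and AKR1C2 are among those with the most matches, the DHRS9 site was the strongest at a promoter, and the site near LMO3 was the strongest with no match.
Near ZWINT, chr10:58200605-58200804, + strand: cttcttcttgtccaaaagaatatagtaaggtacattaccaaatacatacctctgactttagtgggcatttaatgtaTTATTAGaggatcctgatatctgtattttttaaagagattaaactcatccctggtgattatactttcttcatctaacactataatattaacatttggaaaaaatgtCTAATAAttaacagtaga
Nearest gene PLA2G4A, chr1:188489810-188490009, + strand: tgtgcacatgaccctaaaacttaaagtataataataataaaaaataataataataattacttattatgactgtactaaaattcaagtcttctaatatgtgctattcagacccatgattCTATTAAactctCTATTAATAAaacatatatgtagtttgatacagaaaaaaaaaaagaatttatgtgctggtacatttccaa
Near SFR1, chr10:105868842-105869041, + strand: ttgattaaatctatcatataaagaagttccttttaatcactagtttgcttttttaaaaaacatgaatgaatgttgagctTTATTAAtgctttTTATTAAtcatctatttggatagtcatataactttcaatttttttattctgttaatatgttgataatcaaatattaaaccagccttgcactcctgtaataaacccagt
LRBA intron, chr4:151457351-151457550, + strand: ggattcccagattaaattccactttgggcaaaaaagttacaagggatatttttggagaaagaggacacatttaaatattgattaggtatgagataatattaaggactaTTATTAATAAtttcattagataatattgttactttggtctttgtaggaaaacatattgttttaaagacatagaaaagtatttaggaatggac
CD200R1 intron, chr3:112690876-112691075, + strand: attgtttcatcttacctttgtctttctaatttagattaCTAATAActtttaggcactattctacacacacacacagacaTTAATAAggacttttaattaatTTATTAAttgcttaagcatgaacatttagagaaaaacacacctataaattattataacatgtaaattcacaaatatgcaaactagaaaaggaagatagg
AKR1C2 intron, chr10:5035185-5035384, + strand: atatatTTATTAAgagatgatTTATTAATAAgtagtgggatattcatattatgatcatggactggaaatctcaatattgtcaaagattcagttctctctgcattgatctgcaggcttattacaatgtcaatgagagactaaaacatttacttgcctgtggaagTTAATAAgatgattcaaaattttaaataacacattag
DHRS9 promoter, chr2:169921176-169921375, + strand: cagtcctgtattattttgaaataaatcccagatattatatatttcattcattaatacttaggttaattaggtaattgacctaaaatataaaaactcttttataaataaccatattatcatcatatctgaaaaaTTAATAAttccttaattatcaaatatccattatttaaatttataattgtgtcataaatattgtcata
Near LMO3, chr12:16869533-16869732, + strand: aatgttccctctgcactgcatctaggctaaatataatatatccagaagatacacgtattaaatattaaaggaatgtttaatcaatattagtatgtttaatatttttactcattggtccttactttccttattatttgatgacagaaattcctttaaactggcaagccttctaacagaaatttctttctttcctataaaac
In the PLA2G4A, LRBA and AKR1C2 sequences, a run of 10 capitals is a pair of matches that share 4 bases. Several other stretches resemble the consensus without being one of its forms, as in the LMO3 sequence, which has no capitals.

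Fold enrichment, the authors' ratio of read pileup at the summit to local background, had a median of 4.65 over the camptothecin-only sites, with quartiles of 4.26 and 5.19 and a range from 2.02 to 7.36. The deposited -log10 q-value had a median of 5.04, and the median width was 274 bp. Camptothecin peaks that overlapped both other lists had a median fold enrichment of 7.72 and a median width of 387 bp. These values take part in whether a peak is called, so they describe the choice of sites and are not a finding. Of camptothecin peaks under a fold enrichment of 4, 205 of 649 (31.6%) were in neither other list. The share was 16.7% between 4 and 5, 6.28% between 5 and 6 and 0.576% between 6 and 8, and none of 8720 peaks at 8 or more was camptothecin-only. Because strength and class moved together, the main comparisons were repeated among peaks with a fold enrichment from 4 to 6. These were the comparisons of consensus matches, A/T content, genes, accessibility and construct lists. The band held 960 camptothecin-only sites and 4601 peaks present in all 3 lists. Within it the camptothecin-only share still fell from 16.7% to 6.28%, so the band narrows the difference in strength without removing it.

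**Figure D1:**
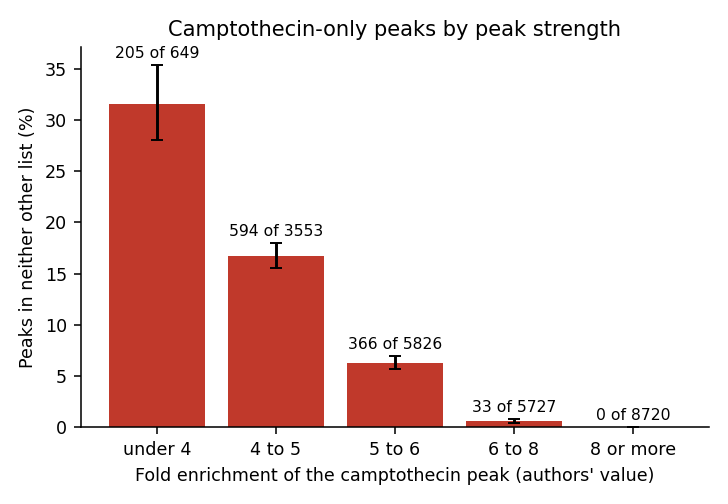
Share of camptothecin peaks in neither other list (y axis, percent) by the fold enrichment of the peak (x axis), with the number of peaks above each bar and exact 95% intervals as error bars. The share was 31.6% under a fold enrichment of 4 and 0 of 8720 at 8 or more.

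At the edge of the rule, 13 sites lay under 100 bp from an untreated or ICRF-193 peak, with fold enrichments from 3.57 to 5.37. Just outside it, 2 camptothecin peaks shared no more than 20 bp with the other lists in all, with fold enrichments of 3.92 and 3.93. The nearest untreated or ICRF-193 peak was a median of 10.7 kb away. It was under 1000 bp away for 138 sites and under 10 kb away for 581. The nearest camptothecin peak of any class was a median of 19.5 kb away, against 27 kb for the peaks of all 3 lists, and 424 of the sites (35.4%, 32.7 to 38.2) had one within 10 kb, against 25.9% (25.3 to 26.6). Only 77 sites (6.43%) had another camptothecin-only site within 10 kb.

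The strongest site, at chr10:58200503-58200906, had a fold enrichment of 7.36 and lay 79.7 kb from ZWINT, which encodes a kinetochore protein. It held 3 consensus matches in 400 bp and was a peak of dHD (fold enrichment 6.32) and of N-C1 (5.52). A site at chr1:188489756-188490063 reached 7.18 with 4 matches and was in neither construct list. The nearest protein-coding gene was PLA2G4A, a cytosolic phospholipase A2, 1532 kb away. A site at chr10:105868797-105869086 also reached 7.18, 12.9 kb from SFR1, a cofactor of recombinational repair, with fold enrichments of 9.72 in dHD and 7.61 in N-C1. In an intron of LRBA, which acts in vesicle trafficking, chr4:151457261-151457640 had 7.18, with 5.75 in dHD and 8.12 in N-C1. All 10 sites with the largest fold enrichment were outside ATAC-seq peaks of both cell types.

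The other 6 of these 10 had fold enrichments from 6.46 to 6.82. Near TP53TG3D, chr16:32467471-32467781 had 6.82. Near KCNT2, a sodium-activated potassium channel gene, chr1:196134898-196135245 had 6.64, and the same value was found 99.3 kb from HTR1A, a serotonin receptor gene, at chr5:63154274-63154578. Values of 6.46 were found at chr1:104662006-104662313, 361 kb from the amylase gene AMY1C, in an intron of TEKT3, a flagellar tektin gene, at chr17:15230915-15231228, and at chr5:162341065-162341370, 523 kb from CCNG1, which encodes cyclin G1. Of the 10 strongest sites, 9 were N-C1 peaks and 7 were dHD peaks, and 8 lay outside protein-coding genes.

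Consensus matches were present within 400 bp of most sites, but in lower number than at the peaks of all 3 lists. At least 1 match was found at 1085 of 1198 sites (90.6%, 88.8 to 92.2), against 96.8% (96.6 to 97.1) of peaks in all 3 lists, 96.1% of all camptothecin peaks and 25.8% of 400 bp windows across the genome. The difference from the peaks of all 3 lists was -6.26 percentage points (-7.94 to -4.59), and it was -2.98 (-4.63 to -1.32) within the fold enrichment band. Among camptothecin peaks with a fold enrichment of 5 or more it was -1.29, with an interval that held 0 (-3.29 to 0.71). The mean number of matches was 1.98 (SD 1.13 across sites) against 2.89 (SD 1.64). Within the band it was 2.07 against 2.43, a difference of -0.36 (-0.43 to -0.28). Against camptothecin peaks shared with ICRF-193 alone, the band difference was -0.25 (-0.33 to -0.17). Against ICRF-193-only peaks in their own band of 4 to 6 the interval held 0, at -0.03 (-0.10 to 0.05). It also held 0 against untreated-only peaks in their own band, at -0.06 (-0.15 to 0.03). Over all peaks these last differences were -0.14 (-0.20 to -0.07) and -0.13 (-0.22 to -0.05), and neither interval held 0. The genome held 0.323 matches per window of that size.

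The commonest number of matches was 2, at 419 sites. There were 292 sites with 1, 270 with 3, 86 with 4 and 18 with 5, and none had 6 or more, which allows a share of up to 0.307% as the exact upper limit. In the peaks of all 3 lists the commonest number was 3, and 4.34% had 6 or more. Sites with 4 or more matches made up 8.68% (7.15 to 10.4) of the camptothecin-only class and 28.1% (27.5 to 28.8) of the other, and the shares were 8.96% and 16.3% within the band.

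**Figure D2:**
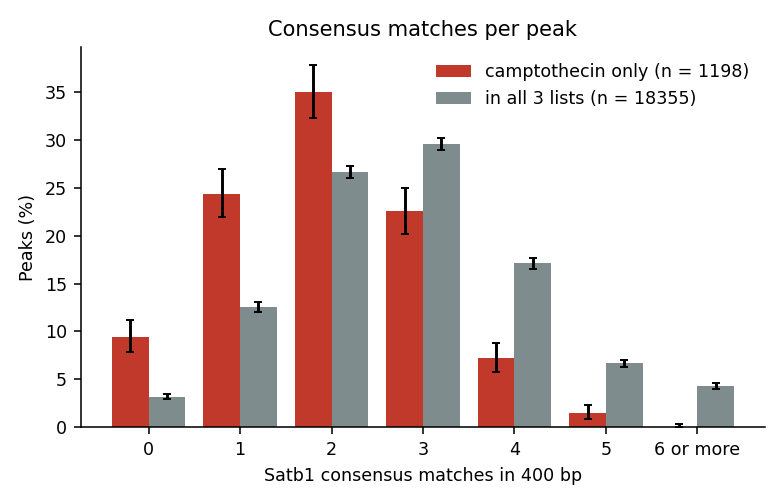
Share of peaks (y axis, percent) by the number of Satb1 consensus matches in 400 bp (x axis), for the 1198 camptothecin-only sites and the 18355 camptothecin peaks in all 3 lists, with exact 95% intervals. The commonest number was 2 in the former and 3 in the latter, and no camptothecin-only site had 6 or more.

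The share of each form of the consensus differed by under 3 percentage points between the sites and the peaks of all 3 lists. TTAATAA and its reverse complement made up 46.8% (44.7 to 48.8) of the 2374 matches at the sites, 49.6% at the peaks of all 3 lists and 44.8% of matches in the genome. CTAATAA and its reverse complement made up 28.1% (26.3 to 30.0) at the sites, 27.9% at the peaks of all 3 lists and 22.5% in the genome. CTATTAA and its reverse complement had 15.8% (14.3 to 17.3) at the sites and 21.6% in the genome, and CTAATAG with CTATTAG had 9.39% (8.25 to 10.6) at the sites and 11.1% in the genome. Neighbouring matches at 1 site were a median of 59.0 bp apart, against 34.0 bp at the peaks of all 3 lists. Pairs 8 to 12 bp apart, about a helical turn, made up 6.98% (5.65 to 8.51) of 1289 pairs at the sites and 10.8% (10.5 to 11.1) of 35276 pairs at the peaks of all 3 lists. Pairs 3 to 7 bp apart made up 7.14% at the sites and 8.86% at the peaks of all 3 lists. Pairs 13 to 17 bp apart made up 5.66% and 8.68%, in both classes fewer than those 8 to 12 bp apart. At the sites the share at 8 to 12 bp did not differ beyond its interval from either. Spacing within a fixed window depends on the number of matches, which was lower at the sites (a mean of 1.98 against 2.89). It was not repeated among peaks of equal match number or within the fold enrichment band. A difference in arrangement therefore cannot be told apart here from the difference in number.

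Of the 18 sites with 5 matches in 400 bp, the strongest was at chr3:112690833-112691119, in an intron of the inhibitory receptor gene CD200R1 (fold enrichment 5.92). The next 4 by fold enrichment were at chr18:58582830-58583124, 418 kb from the cadherin gene CDH20 (5.55), in an intron of the aldo-keto reductase gene AKR1C2 (chr10:5035151-5035419, 5.37), 18.1 kb from the glycosyltransferase gene GALNT18 (chr11:11661485-11661746, 5.19) and 138 kb from the folate hydrolase gene FOLH1 (chr11:49367588-49367956, 5.19). All but the CDH20 site were peaks of both constructs. Their fold enrichments were below those of the strongest sites, which had between 1 and 4 matches.

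The 113 sites without a match had a median fold enrichment of 4.19, against 4.65 for the 1085 with one. Their A/T content was 69.9% ± 5.42 (SD across sites), against 72.2% ± 4.08. Of these 113, 18 (15.9%, 9.72 to 24.0) were in ATAC-seq peaks of Satb1-expressing cells, against 3.50% (2.49 to 4.78) of the sites with a match. The strongest site without a match was at chr12:16869481-16869785, 106 kb from LMO3, a LIM-domain cofactor gene, with a fold enrichment of 5.92, and it was a peak of dHD (6.88) and N-C1 (7.61). Sites without the consensus were thus weaker, less A/T-rich and more often accessible. The 3 measures were not separated from one another.

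A/T content over 200 bp averaged 72.0% (SD 4.27 across sites), against 73.3% (SD 5.59) for peaks in all 3 lists and 59.1% for the genome. The difference was -1.30 percentage points (-1.56 to -1.05) over all peaks, but 0.59 (0.30 to 0.87) within the fold enrichment band, where the camptothecin-only sites had the higher content, and over a 400 bp window it was -0.15 (-0.38 to 0.07). Against the peaks of all 3 lists, the sign thus depended on the strength of the peaks compared. Camptothecin peaks shared with ICRF-193 alone had 74.8% A/T. The sites were lower than these both over all peaks, with a difference of -2.8 points (-3.1 to -2.6), and within the band, at -2.2 (-2.5 to -2.0). The flanks, from 1000 to 2000 bp on either side, held 63.7% A/T at the sites and 62.7% at the peaks of all 3 lists. The 200 bp window was richer in A/T than its own flanks at 1118 sites (93.3%), by a mean of 8.21 percentage points, against 10.6 at the peaks of all 3 lists. Within the band these means were 8.44 and 9.04, a difference of -0.59 (-0.97 to -0.22). There were 1.36 CpG dinucleotides per 400 bp at the sites and 1.5 at the peaks of all 3 lists.

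Peaks called in untreated cells alone, in neither drug list, were poorer in A/T. These 1337 peaks had 66.3% A/T (SD 5.82) in the window and 60.0% in the flanks, and the camptothecin-only sites were 5.62 percentage points (5.23 to 6.02) above them in the window. The untreated-only peaks held 2.47 CpG dinucleotides per 400 bp, and 95.9% of them had a consensus match. The 11583 peaks called after ICRF-193 alone had 73.6% A/T (SD 4.88), so that the camptothecin-only sites differed from them by -1.63 points (-1.89 to -1.37), and 1.36 CpG dinucleotides. In base composition the camptothecin-only sites were therefore nearer to the ICRF-193-only peaks than to the untreated-only peaks. Fragment size may differ between libraries, since the narrowest peak was 219 bp wide among untreated-only peaks and 250 bp among the camptothecin-only sites, and its part in these differences was not tested.

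**Figure D3:**
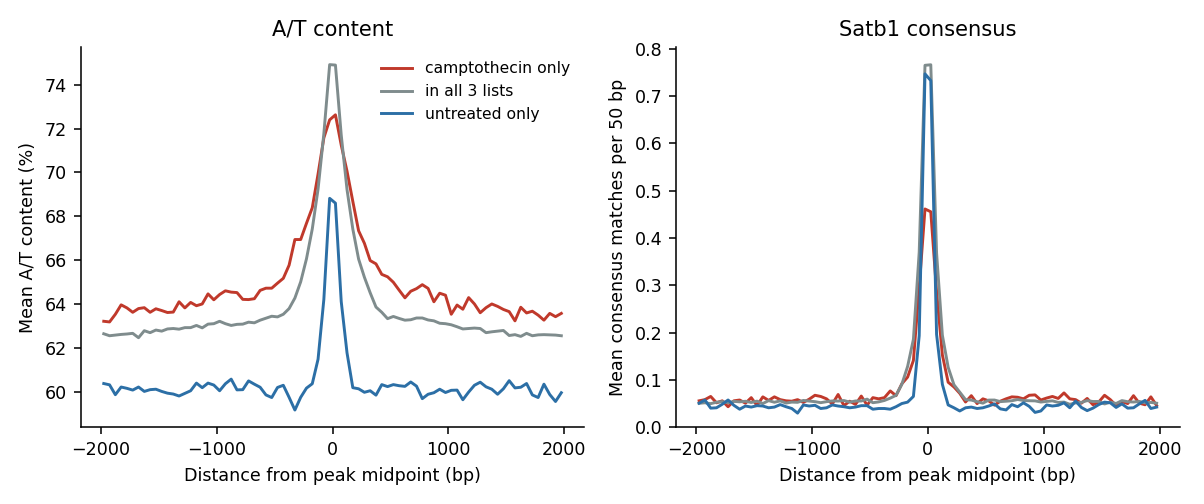
Mean A/T content (left, percent) and mean consensus matches per 50 bp (right) by distance from the peak midpoint in bp, for camptothecin-only sites, peaks in all 3 lists and untreated-only peaks. In the 50 bp bin just left of the midpoint, A/T content was 72.4%, 74.9% and 68.8%, and matches numbered 0.461, 0.765 and 0.747.

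Within 50 bp of the midpoint the consensus was sparser at the camptothecin-only sites than in either other class, with 0.461 and 0.455 matches in the bins to the left and right. The peaks of all 3 lists had 0.765 and 0.766, and the untreated-only peaks 0.747 and 0.732. These profiles were not repeated within the fold enrichment band. In the bin centred 225 bp left of the midpoint, A/T content was 67.7% at the sites and 66.1% at the peaks of all 3 lists. At the untreated-only peaks it was 60.2%, where it had fallen to the level of the flanks. The flanks themselves held 63.7% at the sites and 62.7% at the peaks of all 3 lists. The level in this bin therefore does not by itself give the width of the A/T core.

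Most camptothecin-only sites were also bound, by the peak calls, by a truncated Satb1 in cells whose labels name no drug. The dHD list held a peak at 679 of 1198 sites (56.7%, 53.8 to 59.5), against 88.6% (88.1 to 89.0) of peaks in all 3 lists and 82.6% of all camptothecin peaks. The N-C1 list held a peak at 877 sites (73.2%, 70.6 to 75.7), against 95.3% (95 to 95.6) and 90.8%. The construct lists were not used to choose the sites, but the classes compared differ by their calls in other Satb1 lists. The dHD peaks covered 0.809% of the genome and the N-C1 peaks 0.805%. The shares at the sites were thus far above that coverage and below the share of the camptothecin list as a whole. The dHD list had 50537 peaks and the N-C1 list 62856, both more than the 24475 of camptothecin and the 22877 of untreated full-length Satb1, and the read depth behind each list is not given in the sources used here.

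By construct, 620 sites (51.8%) were peaks of both dHD and N-C1, 257 (21.5%) of N-C1 alone, 59 (4.92%) of dHD alone and 262 (21.9%, 19.6 to 24.3) of neither. At the peaks of all 3 lists the share in neither was 4.22% (3.94 to 4.52). Within the fold enrichment band the shares were 60.3% against 89.3% for dHD and 76.5% against 94.9% for N-C1. The differences there were -28.9 (-32.2 to -25.7) and -18.4 points (-21.2 to -15.6). The peaks of all 3 lists were chosen for calls in both other full-length lists, and the sites for calls in neither. The band does not remove this choice, and how far it bears on the shares in further Satb1 lists was not tested. The sizes of the differences depended on the threshold. For N-C1 the difference was -9.10 points among camptothecin peaks with a fold enrichment of 5 or more and -39.5 when N-C1 peaks needed 5 or more. For dHD these values were -21.6 and -39.8. Camptothecin peaks shared with ICRF-193 but not with untreated cells, 3588 of them in the same band, were much nearer, at 65.9% for dHD and 78.3% for N-C1. There the sites were -5.63 points (-9.09 to -2.17) apart for dHD, and for N-C1 the interval of the difference held 0, at -1.83 (-4.83 to 1.17).

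The peaks of other single lists bracketed these shares. Of untreated-only peaks, 90.8% (1214 of 1337) were in the dHD list and 95.4% in the N-C1 list. Of ICRF-193-only peaks, 52.1% were in the dHD list and 65.6% in the N-C1 list, below the camptothecin-only sites by 4.60 points (1.65 to 7.55) and 7.59 points (4.94 to 10.2). In each of these classes N-C1 held more of the peaks than dHD did.

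**Figure D4:**
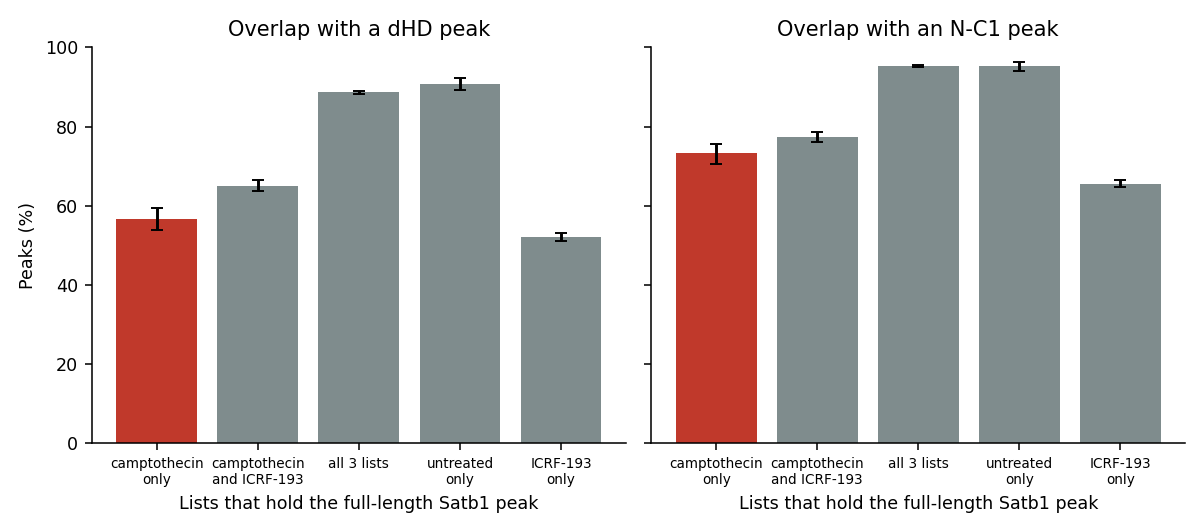
Share of full-length Satb1 peaks (y axis, percent) that overlapped a dHD peak (left) or an N-C1 peak (right), by the lists that held the full-length peak (x axis), with exact 95% intervals. Camptothecin-only sites (red) were at 56.7% and 73.2%, below peaks in all 3 lists and untreated-only peaks and above ICRF-193-only peaks.

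Stronger sites were more often in the construct lists. In the weakest 300 sites, up to a fold enrichment of 4.26, 41.0% (35.4 to 46.8) were dHD peaks and 58.3% (52.5 to 64.0) N-C1 peaks, and in the strongest 300, from 5.19, 67.7% (62.0 to 72.9) and 86.7% (82.3 to 90.3). Sites without a consensus match were dHD peaks in 31.9% (23.4 to 41.3) and N-C1 peaks in 51.3% (41.7 to 60.8). With 1 match the shares were 57.9% and 74.3%, and with 4 or more, 63.5% and 76.9%. Beyond the step from no match to 1, these intervals overlapped.

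The construct peaks at the sites were of moderate strength. Their median fold enrichment was 6.13 in dHD (6.03 to 6.32) and 5.70 in N-C1 (5.52 to 5.87), against 10.8 and 11.9 at peaks of all 3 lists. In the dHD list, whose median was 6.51, 55.4% (51.5 to 59.2) of the peaks overlapped at the sites were below it, and in the N-C1 list, with a median of 6, 58.0% (54.7 to 61.3) were. The 262 sites in neither construct list had a median fold enrichment of 4.35, a consensus match in 80.9% (75.6 to 85.5) and 73.9% A/T, against 4.65, 93.3% (91.5 to 94.8) and 71.4% for the 936 in 1 or both.

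Few sites were accessible. ATAC-seq peaks of Satb1-expressing cells overlapped 56 of 1198 sites (4.67%, 3.55 to 6.03), against 4.47% (4.18 to 4.78) of peaks in all 3 lists and 4.14% of all camptothecin peaks. ATAC-seq peaks of native cells overlapped 40 (3.34%, 2.40 to 4.52), against 3.44% (3.18 to 3.71) and 3.17%. The differences were 0.20 points (-1.03 to 1.43) and -0.10 (-1.15 to 0.95), and both intervals held 0. Those ATAC-seq peaks covered 8.95% and 5.76% of the genome, so each share was below the coverage. Within the fold enrichment band the sites were at 2.50% in Satb1-expressing cells against 4.04%, a difference of -1.54 points (-2.68 to -0.40). In native cells the band difference was -0.98, and its interval held 0 (-2.013 to 0.05). In Satb1-expressing cells the difference depended on the class compared. In the band it was 0.41 (-0.68 to 1.503) against camptothecin peaks shared with ICRF-193 alone. It was 0.11 (-0.93 to 1.15) against ICRF-193-only peaks and -3.795 (-5.616 to -1.975) against untreated-only peaks. Over all peaks these were 2.07 (0.79 to 3.35), 1.972 (0.741 to 3.204) and -1.533 (-3.295 to 0.2277). The accessibility was measured without camptothecin, and accessibility during the treatment was not analysed here.

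The 56 accessible sites were weak and poor in consensus. Their median fold enrichment was 3.86, against 4.65 for the 1142 others, 38 of them (67.9%, 54.0 to 79.7) had a match against 91.7% (89.9 to 93.2), and their A/T content was 69.1% ± 5.75 (SD) against 72.1% ± 4.13. Of the 40 sites accessible in native cells, 37 were also accessible in Satb1-expressing cells. As a check of the cell type, 12 of 13 basal mammary marker genes had an ATAC-seq peak at the promoter in native cells and 12 in Satb1-expressing cells, against 2 and 3 of 10 lymphocyte markers and 1 and 2 of 4 hormone-sensing luminal markers. Over all protein-coding genes the shares were 69.1% and 73.8%.

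Sites were less often inside genes than the peaks of all 3 lists were. Of the 1198, 416 (34.7%, 32.0 to 37.5) had their summit in a protein-coding gene, against 39.6% (38.9 to 40.4) of peaks in all 3 lists, 38.7% of all camptothecin peaks and 45.6% of sequenced bases. The difference was -4.92 points (-7.71 to -2.13) and -4.32 (-7.67 to -0.96) within the band. Among camptothecin peaks with a fold enrichment of 5 or more it was -2.75, with an interval that held 0 (-7.54 to 2.04). The share at the sites was also below the 42.0% of untreated-only peaks, by -7.24 points (-11.0 to -3.46). Against the 36.2% of camptothecin peaks shared with ICRF-193 alone, the difference was -1.52 points, and its interval held 0 (-4.55 to 1.51). Within the band that difference was 0.003 (-3.42 to 3.43). Introns held 398 sites, exons 14 and promoters 5, and 781 (65.2%) were intergenic, meaning outside protein-coding genes and their promoters. With genes of every type counted, 55.34% of the sites lay in a gene, against 58.35% of peaks in all 3 lists. That difference was -3.01 points (-5.92 to -0.11). A protein-coding start was a median of 145 kb away (127 to 164), against 112 kb (109 to 116) for peaks in all 3 lists, and it was within 10 kb for 112 sites.

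The genes that held sites were long. The median length over the 416 sites in genes was 318 kb (278 to 363), against 262 kb (250 to 272) over the peaks of all 3 lists in genes, 285 kb (262 to 305) over those shared with ICRF-193 alone, 360 kb (270.5 to 433) over those shared with untreated cells alone, and against 27.2 kb for all 20163 protein-coding genes. A base drawn evenly from all gene bodies falls in a gene of 174 kb at the median, which is the fairer mark for features spread by length. Genes of 500 kb or more held 146 of the 416 (35.1%, 30.5 to 39.9), against 29.2% (28.1 to 30.2) for the peaks of all 3 lists. Against the 31.8% of camptothecin peaks shared with ICRF-193 alone, the difference was 3.33 points, and its interval held 0 (-1.77 to 8.42). The position within the gene, from 0 at the start to 1 at the end, had a median of 0.481 (0.428 to 0.526), near the middle. The promoter of the host gene had an ATAC-seq peak for 70.0% (65.3 to 74.3) of the sites in native cells and 70.2% in Satb1-expressing cells, against 65.9% (64.8 to 66.9) and 65.6% for the peaks of all 3 lists and 69.1% and 73.8% over all protein-coding genes.

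The 416 sites fell in 345 genes, of which 303 held 1 site, 28 held 2 and 14 held 3 or more. CSMD3, a 1214 kb gene of a membrane protein with CUB and sushi domains, on chromosome 8 (113235157 to 114449168, minus strand), held the most, with 9. Their fold enrichments ran from 3.75 to 6.10, and 4 were dHD peaks and 5 N-C1 peaks. The gene held 75 camptothecin peaks in all, against 50 untreated and 100 ICRF-193 peaks. PTPRD, a receptor tyrosine phosphatase gene of 2299 kb, EYS, a photoreceptor gene of 1987 kb, and RYR2, the cardiac calcium release channel gene of 792 kb, held 5 each. All 5 sites in EYS were peaks of both dHD and N-C1. In RYR2, 4 of 5 were N-C1 peaks and 2 were dHD peaks.

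CCSER1 on chromosome 4, VPS13B, a lipid transfer gene, and RIMS2, a presynaptic active zone gene, held 4 each, and SGCD, a sarcoglycan gene, the orphan nuclear receptor gene ESRRG and RIMS1, the paralogue of RIMS2, held 3 each. Each of these 10 genes was longer than 500 kb and also held between 9 and 66 other camptothecin peaks. The sites per Mb of gene ran from 2.18 in PTPRD to 7.41 in CSMD3, against 0.319 over all gene bodies, though the genes were named for their counts. At 44 of the 345 host genes (12.8%), the sites were the only full-length Satb1 peaks in any of the 3 lists. These genes were shorter, with a median of 68.8 kb against 252 kb for all host genes counted once. Longer genes have more room for other peaks, so this length describes how the genes were picked and is not a finding.

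**Figure D5:**
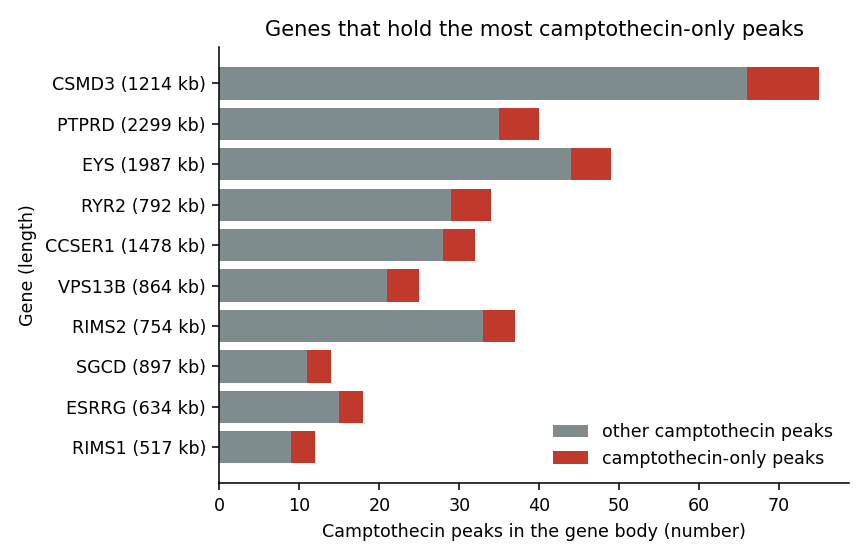
Number of camptothecin peaks (x axis) in the bodies of the 10 genes that hold the most camptothecin-only sites (y axis, with gene length in kb), split into camptothecin-only sites (red) and other camptothecin peaks (grey). CSMD3 held 9 of 75, and in all 10 genes other peaks outnumbered the sites.

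Of the listed gene groups, the long ones held sites and the short ones held few. Among 20 common fragile site and other very long genes, 13 held 15 sites, with 2 each in LRP1B, a lipoprotein receptor gene, and NBEA, and all 20 held peaks of all 3 lists, 255 together. The sites came to 0.478 per Mb of these genes, against 0.319 over all gene bodies, and the peaks of all 3 lists to 8.13 against 5.57, so both were denser there to a similar degree. Among 20 neuronal adhesion and guidance genes, 9 held 15 sites, or 0.669 per Mb, beside 10.9 peaks of all 3 lists per Mb, with 5 in PTPRD and 2 each in ROBO2, an axon guidance receptor gene, and ERBB4, and all 20 held peaks of all 3 lists. None of 20 p53 target genes, 13 basal mammary markers, 10 lymphocyte markers or 4 luminal markers held a site. These groups span 0.542, 1.10, 0.244 and 0.609 Mb, so at 0.319 sites per Mb of gene body fewer than 1 site would fall in each.

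Among 17 genes of topoisomerases and of the repair of their lesions, 1 held a site. It was TOP2B, the beta isoform of topoisomerase II, with a site at chr3:25685390-25685706 in an intron. It had a fold enrichment of 5.55, 1 consensus match and 79.5% A/T, it was a peak of dHD (5.94) and N-C1 (5), and it was the only camptothecin peak in the gene. The nearest untreated or ICRF-193 peak was 29.4 kb away. Across the group 2 genes held a peak of all 3 lists.

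At promoters, from 1000 bp upstream to 100 bp downstream of a protein-coding transcript start, there were 5 sites (0.417%, 0.136 to 0.971), against 0.523% of peaks in all 3 lists. The strongest was at DHRS9, a retinol dehydrogenase gene, at chr2:169921125-169921426, with its summit 64 bp upstream of the start, a fold enrichment of 6.10, 1 match and 81.0% A/T. The next was upstream of PLN, the gene of the cardiac calcium pump inhibitor phospholamban, at chr6:118868670-118868931, with its summit 606 bp from the start and a fold enrichment of 4.11. It also lies inside CEP85L. Sites at inner transcript starts of CEP170, a centrosomal protein gene (3.93), SYT14, a synaptotagmin gene (3.81), and FYN, a Src family kinase gene (3.78), were weaker. Only the SYT14 and FYN sites were dHD peaks, and all but the CEP170 site were N-C1 peaks. None of the 5 was in an ATAC-seq peak of either cell type.

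Exonic sites, named after their values were seen, lay in SAMD5, CEP63, ESRRG, TNFRSF11B, RAB30, NMD3, SPRED1, NXPE3, CENPF, WEE1, EIF3E, SERTAD4 and SEC22B. Their fold enrichments ran from 3.41 in SEC22B to 5.55 in SAMD5. WEE1 encodes the kinase that holds back entry into mitosis, and its site, at chr11:9611086-9611343, had 3.93, with 7.64 in dHD and 6.74 in N-C1. CENPF encodes a kinetochore protein, and its site had 3.98 and was in neither construct list. The EIF3E and SEC22B sites were accessible in both cell types.

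The sites were spread unevenly over chromosomes. Over all of them, 1198 of 24475 camptothecin peaks were camptothecin-only sites. Chromosome 1 held 167, or 6.46% (5.54 to 7.48) of its camptothecin peaks, and chromosome 8 held 114, or 6.08% (5.04 to 7.26), against 8.87% (6.32 to 12) on chromosome 21, 7 of 48 peaks (14.6%, 6.07 to 27.8) on chromosome Y, 4.04% (3.27 to 4.93) on chromosome 4 and 1 site, or 0.855%, on chromosome 19. Together chromosomes 1 and 8 held 23.5% of the sites and 17.6% of the peaks in all 3 lists. Per Mb there were 0.779 sites on chromosome 8, 0.769 on chromosome 21 and 0.670 on chromosome 1, against 0.387 over all. The number of camptothecin peaks per Mb was 12.8 on chromosome 8 and 10.4 on chromosome 1, also above the 7.91 over all. How many copies of each chromosome these cells carry was not analysed here.

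In windows of 10 Mb, the most sites were at 110 to 120 Mb of chromosome 8, where CSMD3 lies, with 33 among 415 camptothecin peaks (7.95%). Of these 33, 24 were N-C1 peaks and 31 had a consensus match. Over all windows there were 1198 sites among 24475 camptothecin peaks, and 90.6% of the sites had a match. The next window by count was 190 to 200 Mb of chromosome 1, with 28 of 410 (6.83%), of which 25 had a match. On chromosome 21, the window from 10 to 20 Mb held 27 sites among 139 peaks (19.4%, 13.2 to 27), of which 13 were N-C1 peaks, 6 were dHD peaks and 17 had a match. On chromosome 1, the window from 140 to 150 Mb held 19 of 142 (13.4%), of which 12 had a match. The window from 210 to 220 Mb, where ESRRG lies, held 25 of 242 (10.3%), of which 21 had a match and 21 were N-C1 peaks. Next by count were 230 to 240 Mb of chromosome 1 (19 of 178, 10.7%), 100 to 110 Mb of chromosome 8 (19 of 231, 8.2%) and 80 to 90 Mb of chromosome 13 (18 of 261, 6.90%). The chromosome 21 and the 140 to 150 Mb windows thus held sites with fewer matches, at median fold enrichments of 4.07 and 3.82. The repeat content of these windows, and how reads that match several places were treated there, were not analysed here.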

How the data were processed

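The ChIP-seq and ATAC-seq data were used as 7 deposited peak lists of 20 samples, 1 per condition, and the other 13 samples were not analysed here. According to the study's methods and the submitters' processing notes, the authors trimmed reads with cutadapt, aligned them to hg19 with Bowtie2 and called the peaks in MACS2 (ChIP-seq with an input control, ATAC-seq in broad mode). The deposited fold enrichment is the authors' ratio of pileup to local background, and the deposited -log10 q-value is that of MACS2. The study gives a range of read depth for its ChIP-seq libraries and says that experiments were done in duplicate, but the depth behind each list and whether duplicates were pooled are not given in the sources used here. Whether depth differed between lists, and its part in which weak peaks were called, was not tested.

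A peak was in another list when it shared 1 bp or more with a peak of it. Sequence was read from GRCh37 in windows of 400 bp (consensus, CpG) or 200 bp (A/T) at the peak midpoint, and genes from GENCODE release 44 lifted to GRCh37 at the summit, with the longest protein-coding gene as host. Intervals for shares are exact 95% Clopper-Pearson intervals, those for differences are Wald intervals, and those for means and medians are across peaks. No test was run, because there was 1 list per condition. Overlap, motif and interval functions were tested on simulated data. Python 3.11.15, numpy 2.4.6, pandas 2.3.3, scipy 1.17.1, pysam 0.24.0, matplotlib 3.10.9, bedtools 2.31.1 (in that test) and samtools 1.23.1 were used.

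The sites named are the 10 with the largest fold enrichment, the 5 with the most matches, the promoter sites and the 10 genes that hold most sites, and the gene groups are lists of known genes. The sites and lists were chosen with earlier results of these data known. Exonic sites, sites without a match and 10 Mb windows were added after their values were seen. 1 exonic site is not reported here. Alternatives were a stricter peak threshold, reciprocal overlap, a distance of 1000 bp, a band of fold enrichment, other windows, a narrower consensus, other annotation and stricter ATAC-seq or construct peaks. Summit-centred windows and leaving out chromosomes 1 and 8 were chosen after seeing the data.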

Additional observations from a re-analysis of the deposited data

How the results depend on the processing

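Of 65 alternative values, 40 stayed within the error of the reported one (for the number of sites, within 1.5 times), 24 moved beyond it and 1 changed sign. Differences are camptothecin-only sites minus peaks in all 3 lists, in percentage points unless named. Keeping camptothecin peaks of fold enrichment 5 or more left 399 sites, and requiring 5 of untreated and ICRF-193 peaks gave 2336. With the former, the differences were -1.29 (-3.29 to 0.71) for the share with a match, -0.77 matches, -21.6 for dHD, -9.10 for N-C1, -1.59 for accessibility in Satb1-expressing cells and -1.22 in native cells, and the host gene length was 370 kb. At a fold enrichment of 4 to 6 they were -2.98 for the match share, -0.36 matches, -28.9 for dHD, -18.4 for N-C1 and -1.54 for accessibility in Satb1-expressing cells, and the A/T difference turned to 0.59. Over 400 bp the A/T difference was -0.15. Sites with no untreated or ICRF-193 peak within 1000 bp gave -4.00 for the match share and -0.84 matches. A 200 bp window gave -10.4 and -0.77 matches, and CTAATAA or CTAATAG on either strand gave -9.92 and -0.30 matches. Construct peaks of fold enrichment 5 or more gave -39.8 for dHD and -39.5 for N-C1. Counting each host gene once gave 252 kb, against 133 kb for the peaks of all 3 lists. The cause of these moves was not tested. Reciprocal overlap of 50% gave 1475 sites and a distance of 1000 bp gave 1060, and neither reciprocal overlap nor leaving out chromosomes 1 and 8 moved a difference or the host gene length beyond its error. No paired analysis was possible because there was 1 list per condition and no replicate number.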
